A study of Mus musculus with 6 samples.

Results

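The 56 genes described here drive or mark the division of cells. They were chosen by name, as subunits of the replication machinery, enzymes that supply nucleotides, cyclins with their kinases, and proteins of the mitotic spindle. All 56 were on the array, and 49 of them were among the 13706 genes with a probe well above background, out of 21154 named genes on the array. N1ICD-mdx mice lack dystrophin and carry an MCK-Cre transgene, which the creatine kinase promoter drives in muscle fibers, and a Rosa26 allele that makes the intracellular domain of Notch1 (N1ICD) once Cre has acted. The mdx mice lack dystrophin in the same way and do not make N1ICD from the Rosa26 allele. Both groups were on a mixed 129 × C57BL/6 background, were kept on ordinary chow and, by their labels, were 9 months of age. Tibialis anterior (TA) muscles of 3 N1ICD-mdx and 3 mdx mice, described as biological replicates, gave the RNA that was hybridized to 3 Agilent arrays, each holding 1 N1ICD-mdx muscle in Cy5 and 1 mdx muscle in Cy3. The dyes were never swapped, so genotype and dye cannot be told apart for any gene.

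A cell that enters the cycle switches on cyclin D with its kinase, which frees E2F transcription factors to raise the genes of DNA synthesis. The MCM helicase is loaded on chromatin by Cdc6 and Cdt1, is activated by Cdc45 and the GINS complex, and is followed by polymerases held on DNA by the PCNA clamp. Later in the cycle cyclins A and B with Cdk1 bring on mitosis, where Aurora and Polo kinases build the spindle and Cdc20 and Ube2c of the anaphase-promoting complex end it. Nuclei of mature muscle fibers do not divide, and the dividing cells of dystrophic muscle are mononuclear, among them myoblasts, macrophages, fibroblasts and endothelial cells. Some of these genes, such as those of D cyclins and PCNA, are also used outside the cell cycle.

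Promoters of such genes often hold 3 short elements, and the stretches that could hold them are printed here for 5 members, since nearly all members were low together on array 2. Among members with an entry these had the lowest ratios on that array in their class, namely 2 S phase genes, 2 mitosis genes and 1 gene on neither list, and members of another class can lie lower than some of them. A RefSeq table of GRCm38.p6 gave a stretch of 250 bases before to 50 bases after the gene start for 44 of the 56 members. The elements searched on both strands were the cell cycle genes homology region (CHR, TTTGAA or TTCGAA), the E2F site (TTTCCCGC, TTTGGCGC, TTTCGCGC or TTTGCCGC) and the CCAAT box (CCAAT), bound by NF-Y, and E2F words may overlap each other. Capitals mark every match. Rrm2 and Mcm6 belong to DNA synthesis, Birc5 and Cdc20 to mitosis, and Mki67 encodes the proliferation antigen Ki-67. The stretches lie at chr12:24708004-24708303 on the plus strand (Rrm2), chr1:128359656-128359955 on the minus strand (Mcm6), chr11:117848987-117849286 on the plus strand (Birc5), chr4:118437294-118437593 on the minus strand (Cdc20) and chr7:135716330-135716629 on the minus strand (Mki67).
Rrm2: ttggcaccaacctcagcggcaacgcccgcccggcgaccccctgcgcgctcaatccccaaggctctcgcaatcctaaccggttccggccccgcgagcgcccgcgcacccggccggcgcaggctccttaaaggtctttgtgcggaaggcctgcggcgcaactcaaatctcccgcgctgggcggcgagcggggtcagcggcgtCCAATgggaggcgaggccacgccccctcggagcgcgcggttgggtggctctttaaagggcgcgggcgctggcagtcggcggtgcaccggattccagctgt
Mcm6: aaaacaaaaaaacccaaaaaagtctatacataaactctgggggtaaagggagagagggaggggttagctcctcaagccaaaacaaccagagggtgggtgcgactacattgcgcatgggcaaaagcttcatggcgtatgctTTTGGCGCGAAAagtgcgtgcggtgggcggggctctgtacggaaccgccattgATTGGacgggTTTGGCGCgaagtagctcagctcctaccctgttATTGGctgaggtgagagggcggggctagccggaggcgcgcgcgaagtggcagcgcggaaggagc
Birc5: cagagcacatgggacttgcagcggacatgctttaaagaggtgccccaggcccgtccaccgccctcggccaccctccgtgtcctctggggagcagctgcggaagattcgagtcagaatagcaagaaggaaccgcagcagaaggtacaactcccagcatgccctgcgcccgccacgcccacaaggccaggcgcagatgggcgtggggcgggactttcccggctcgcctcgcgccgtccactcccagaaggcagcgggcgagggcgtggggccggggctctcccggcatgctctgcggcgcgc
Cdc20: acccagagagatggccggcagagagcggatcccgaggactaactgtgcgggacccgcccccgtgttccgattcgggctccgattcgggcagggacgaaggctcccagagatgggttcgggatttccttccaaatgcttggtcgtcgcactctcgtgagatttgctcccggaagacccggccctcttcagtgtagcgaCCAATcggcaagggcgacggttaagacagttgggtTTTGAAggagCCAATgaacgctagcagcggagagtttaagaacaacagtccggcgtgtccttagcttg
Mki67: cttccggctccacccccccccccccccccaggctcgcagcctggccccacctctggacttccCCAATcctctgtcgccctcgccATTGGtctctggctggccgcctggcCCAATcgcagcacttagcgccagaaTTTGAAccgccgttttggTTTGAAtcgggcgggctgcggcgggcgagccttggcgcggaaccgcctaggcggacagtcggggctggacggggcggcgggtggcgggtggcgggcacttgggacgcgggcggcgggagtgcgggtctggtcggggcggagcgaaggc
The Mcm6 stretch held 3 E2F words, of which those starting at -110 and -106 from the gene start overlap, and 2 CCAAT boxes on the opposite strand. Cdc20 held a CHR word at -18 between CCAAT boxes at -53 and -8, and Mki67 held 2 CHR words downstream of 3 CCAAT boxes. Rrm2 held a single CCAAT box, at -50. None of the letters searched was in the Birc5 window, which says nothing about what binds there.

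The CHR word was in 15 of 19 mitosis promoters (78.9%), in 2 of 9 promoters of the S phase genes Mcm2 to Mcm7, Pcna, Tyms, Rrm1 and Rrm2 (22.2%), and in 19.4% of the 27025 promoters of the table. For the E2F word the order was turned, with 1 of 19 mitosis promoters (5.26%), 4 of 9 S phase promoters (44.4%) and 2.32% of all promoters. CCAAT boxes were in 16 of 19 mitosis promoters (84.2%), 8 of 9 S phase promoters (88.9%) and 37.9% of all. These shares describe the sequence alone. The median ratio on array 2 was -1.71 for the 18 measured members that held a CHR word. It was -1.50 for the 21 that did not. For the E2F word it was -1.26 in the 9 members with it and -1.65 in the 30 without. For the CCAAT box it was -1.61 in the 27 members with it and -1.44 in the 12 without. None of these differences was tested.

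One muscle stood apart before any gene was compared. Across the 13706 genes the mdx muscle of replicate 2 correlated with the other 5 muscles at 0.967 to 0.982, whereas the others correlated among themselves at 0.987 to 0.994, and the ratios of array 2 spread more widely (SD 0.536) than those of arrays 1 and 3 (0.244 and 0.238). Spots well above background made up 51.6% to 57.3% of the N1ICD-mdx channels and 45.9% to 51.1% of the mdx channels, no spot was saturated, and 3 arrays limit the precision. All 12 muscle fiber genes on the list of markers, Acta1, Ckm and Myh4 among them, were well above background, as the label of the tissue requires. The brightest Notch1 probe had log2 intensities of 6.59, 6.47 and 6.43 in N1ICD-mdx muscles and 6.71, 6.57 and 6.58 in mdx muscles. Where it lies relative to the intracellular domain was not determined, so it does not check the genotype.

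On array 2 nearly all proliferation genes had less signal in the N1ICD-mdx muscle, and on the other arrays their ratios were smaller and of mixed sign. Of the 49 measured members, 48 had a negative log2 ratio of N1ICD-mdx over mdx muscle on array 2, beside 49.6% of all genes, and 38 had one of -1 or lower, beside 5.67%. The median over the members was 0.20 on array 1, -1.50 on array 2 and -0.04 on array 3, where the median of all genes was 0.00 on each array. On array 3, 35 of 49 members were negative, beside 49.8% of all genes. That count moved with the processing, to 27 with the processed signals and 43 with median centring in place of loess. Under median centring the median of all genes on array 3 was -0.17. Averaged over the arrays, 47 members were below 0 and 2 above (50.9% of all genes were below), and the median was -0.47. Without replicate 2, 40 of 49 had a mean above 0 (51.1% of all genes) and the median was 0.08.

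No member passed the test. At an adjusted p under 0.05 limma called 0 of 49 members and 0 of 13706 genes (0%). With the fold of the study's methods, 1.5, together with a p under 0.05 before adjustment, it called none of the members in either direction, beside 0.482% of all genes lower and 0.474% higher. Such a p alone was reached by 1 member, Aurka, on the lower side, beside 2.44% of all genes on that side and 4.05% on the other. The adjusted p of the members ran from 0.703 to 0.983. An exact sign test of a single gene over 3 arrays cannot go below 0.25.

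**Figure D1:**
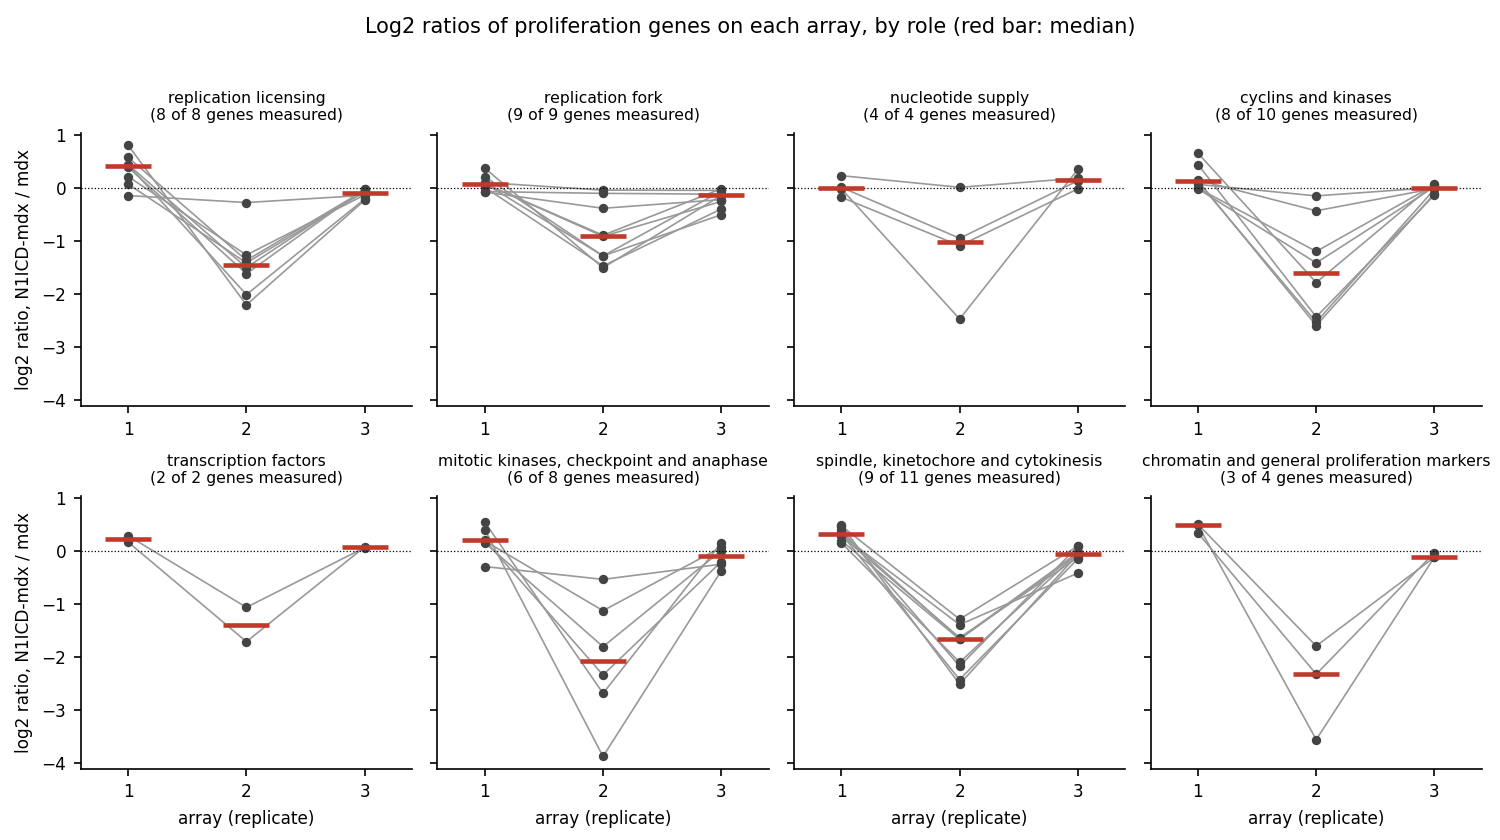
Log2 N1ICD-mdx to mdx ratios (y axis) on arrays 1, 2 and 3 (x axis) for the 49 measured genes in 8 panels by role, where each point is a gene on an array, grey lines join the points of a gene and red bars are the medians of the panel. The panel medians lie between 0.00 and 0.49 on array 1, between -0.91 and -2.32 on array 2 and between -0.14 and 0.16 on array 3.

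Behind the ratios stood a level that was high in 1 mdx muscle. The mdx muscle of replicate 2 had the highest signal of all 6 muscles for 46 of the 49 members, the exceptions being Cdc45, Tyms and Ccnd2, as it had for 29.5% of all genes. Within the mdx group it was the highest of 3 for 47 of 49 members, beside 39.3% of all genes. Its log2 intensity exceeded the mean of the other 2 mdx muscles by a median of 1.36 over the members. Next came both muscles of replicate 1, which lay above both muscles of replicate 3 for 38 of 49 members (20.8% of all genes). The muscles of a replicate share an array, so a level high in both cannot be told apart from an effect of the array. Over the members, the range within a group had a median of 0.67 among N1ICD-mdx muscles and 1.502 among mdx muscles. It was wider in mdx for 46 of 49 members. Over all genes these medians were 0.25 and 0.30, with a wider range in mdx for 8478 of 13706. In whole muscle, fewer dividing cells and less of each transcript per cell cannot be told apart.

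Among the 8 genes of replication licensing the mean ratio was negative for all, with a median of -0.40 and per-array medians of 0.41, -1.45 and -0.10. Mcm6 (NM_008567, chromosome 1), a subunit of the hexameric helicase whose promoter is shown above, had log2 intensities of 10.15, 9.27 and 9.37 in the N1ICD-mdx muscles of replicates 1, 2 and 3, and 9.35, 11.47 and 9.60 in the mdx muscles. The groups overlapped, with the mdx muscle of replicate 2 far above and the N1ICD-mdx muscle of replicate 1 next. The mean log2 ratio of Mcm6 was -0.54 (standard error 0.61, n = 3 arrays) and 0.29 without replicate 2. Mcm4 had 9.32, 8.88 and 8.84 in N1ICD-mdx muscles, against 8.74, 10.25 and 8.88 in mdx muscles. Mcm7 had 9.43, 9.09 and 9.17 in N1ICD-mdx and 9.22, 10.35 and 9.30 in mdx muscles. In both genes the groups again overlapped around the same high mdx muscle. Mcm3, at 8.95, 8.06 and 7.91 in N1ICD-mdx muscles and 8.56, 9.67 and 7.92 in mdx muscles, shared this shape, and its muscles of replicate 3 were all but equal. Mcm5 stood at 7.99, 7.13 and 6.97 in N1ICD-mdx muscles and 7.55, 8.63 and 7.00 in mdx muscles. Mcm2 stood at 7.37, 7.02 and 7.07 in N1ICD-mdx muscles and 7.29, 8.43 and 7.14 in mdx muscles. The 6 helicase subunits thus had ratios of 0.07 to 0.80 on array 1, -2.20 to -1.26 on array 2 and -0.23 to -0.01 on array 3. Cdt1, which brings the helicase to origins, had ratios of 0.43, -2.01 and -0.21, and Cdc6, the other loading factor, -0.14, -0.27 and -0.14.

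The 9 genes of the replication fork had smaller ratios on array 2, with a median of -0.91. Pcna (NM_011045, chromosome 2), the sliding clamp, had log2 intensities of 10.72, 10.29 and 10.12 in N1ICD-mdx muscles and 10.50, 11.57 and 10.62 in mdx muscles. The mdx muscle of replicate 2 was the highest, and the N1ICD-mdx muscle of replicate 1 lay above the other 2 mdx muscles. Its mean ratio was -0.52 (standard error 0.31, adjusted p = 0.703 in limma) and -0.14 without replicate 2. Fen1, the nuclease that trims Okazaki fragments, had 8.62, 8.48 and 8.16 in N1ICD-mdx muscles, against 8.61, 9.94 and 8.55 in mdx muscles. Its ratio of -0.19 without replicate 2 came from array 3, since the muscles of array 1 were level. Rfc4, a subunit of the clamp loader, had 9.31, 9.54 and 9.24 in N1ICD-mdx muscles and 9.21, 9.58 and 9.28 in mdx muscles. Its mean ratio was 0.01, and both muscles of replicate 2 lay above all the others. Prim1 and Pola1, which make primers and extend them, had -1.50 and -0.91 on array 2 and 0.37 and 0.08 on array 1. Gins1 and Gins2 of the helicase activator had -0.89 and -1.28 on array 2 and between -0.06 and 0.09 elsewhere.

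Nucleotide supply held both extremes of the S phase genes. Rrm2 (NM_009104, chromosome 12), the small subunit of ribonucleotide reductase that is made in S phase, had log2 intensities of 9.36, 8.63 and 8.83 in N1ICD-mdx muscles and 9.38, 11.10 and 8.47 in mdx muscles. Its ratios of -0.01, -2.47 and 0.35 had a mean of -0.71 (standard error 0.61) and, without replicate 2, of 0.17. The mdx muscle of replicate 2 exceeded every other muscle, while the mdx muscle of replicate 3 was the lowest of all. Rrm1, the large subunit, had 9.15, 8.97 and 9.09 in N1ICD-mdx muscles and 9.32, 10.05 and 9.10 in mdx muscles, and its groups overlapped only at replicate 3 of mdx. Tk1, thymidine kinase of dividing cells, had 8.68, 8.32 and 8.40 in N1ICD-mdx muscles against 8.67, 9.27 and 8.26 in mdx muscles. Tyms, thymidylate synthase, was the exception, with 6.29, 6.13 and 6.14 in N1ICD-mdx muscles and 6.06, 6.11 and 5.95 in mdx muscles. All 3 N1ICD-mdx muscles lay above all 3 mdx muscles for Tyms, as they do for 7.56% of all genes. The mean ratio of Tyms was 0.14 (standard error 0.09, adjusted p = 0.706 in limma). Its signal was close to background, with a mean log2 intensity of 6.11. The ratio was 0.03 without background correction, 0.15 with the processed signals and 0.33 with a normexp offset of 10. The size of this exception therefore depends on the background correction.

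**Figure D2:**
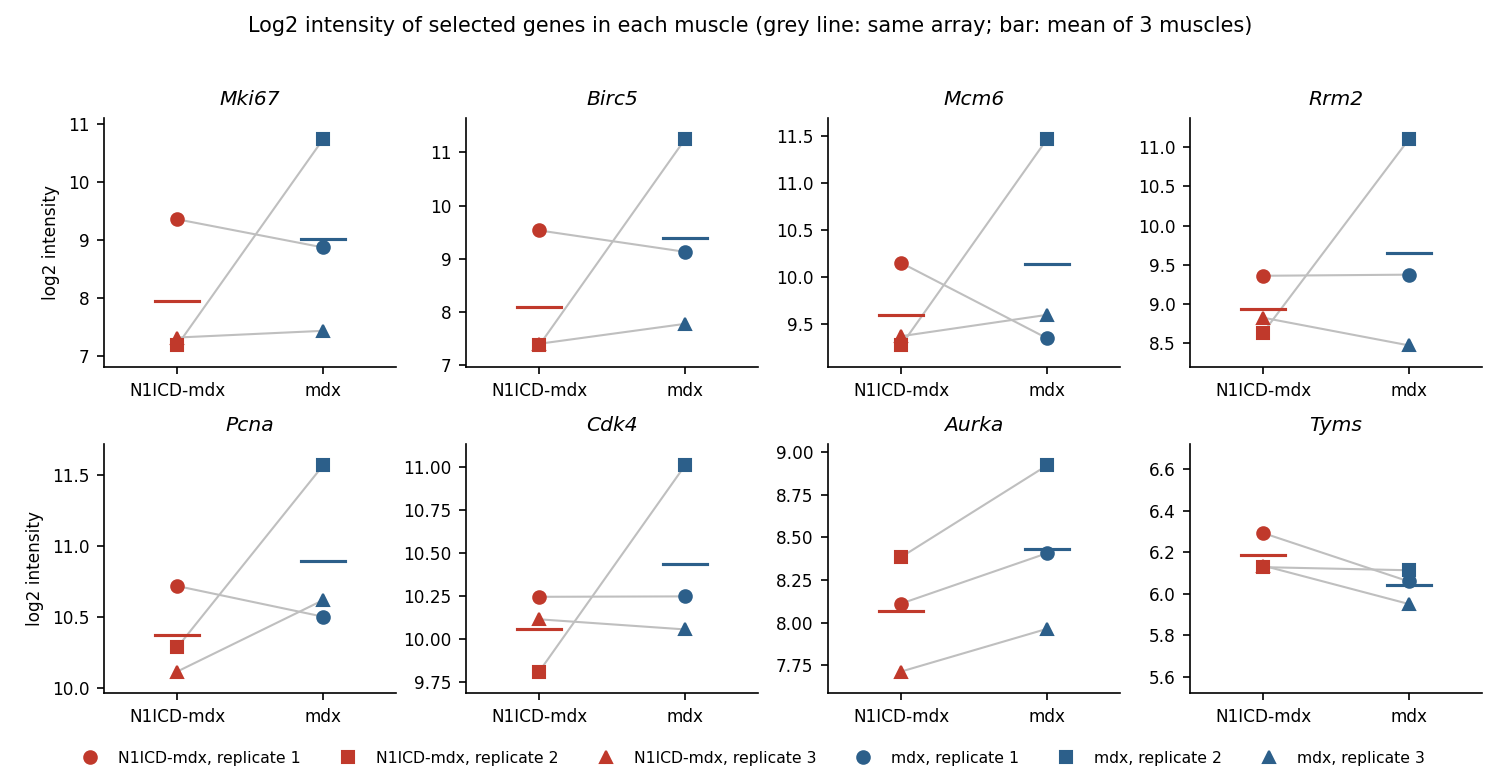
Log2 intensity (y axis, a scale of its own in each panel) of 8 genes in the N1ICD-mdx (left, red) and mdx (right, blue) muscles of replicates 1 (circle), 2 (square) and 3 (triangle), with grey lines between the muscles of an array and a bar at the mean of 3 muscles. In the panels of Mki67, Birc5, Mcm6, Rrm2, Pcna, Cdk4 and Aurka the blue square is the highest point, and in the panel of Tyms every red point lies above every blue point.

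Of the 10 cyclins and kinases 8 were measured, with per-array medians of 0.13, -1.59 and 0.00. Cdk4, the kinase partner of D cyclins, had log2 intensities of 10.25, 9.81 and 10.12 in N1ICD-mdx muscles and 10.25, 11.01 and 10.06 in mdx muscles. The gap between genotypes lay in the muscles of replicate 2, and the other 2 probes of Cdk4 gave -1.02 and -0.84 on that array beside -1.19 at the brightest. Ccnd1, cyclin D1, had 9.59, 8.62 and 8.77 in N1ICD-mdx muscles and 8.94, 10.40 and 8.69 in mdx muscles. Ccnd2, cyclin D2, had 8.08, 8.005 and 8.17 in N1ICD-mdx muscles and 8.01, 8.15 and 8.16 in mdx muscles. The D cyclins therefore parted, with ratios on array 2 of -1.78 for Ccnd1 and -0.15 for Ccnd2. Ccne1, cyclin E of the entry into S phase, had -1.41 on array 2 and -0.01 and 0.02 on the others, and its kinase Cdk2 had -0.43. The cyclins of the later cycle lay lowest, with ratios on array 2 of -2.59 for Ccna2, -2.52 for Ccnb1 and -2.43 for Ccnb2. For Ccnb2 the N1ICD-mdx muscles had 8.64, 7.33 and 6.96 and the mdx muscles 8.20, 9.75 and 7.09, so that replicate 1 was also high in both genotypes. The transcription factors followed. E2f1, an activator of S phase genes, had 7.47, 6.90 and 6.86 in N1ICD-mdx muscles and 7.31, 8.61 and 6.78 in mdx muscles. Foxm1, an activator of mitosis genes, had 6.82, 6.46 and 6.35 in N1ICD-mdx muscles and 6.53, 7.52 and 6.29 in mdx muscles, and for both genes the pair of replicate 1 was above that of replicate 3.

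Among mitotic kinases, checkpoint and anaphase genes 6 of 8 were measured, and they had a median of -2.07 on array 2. Birc5 (NM_001012273, chromosome 11) encodes survivin, the chromosomal passenger protein that guides Aurora B. Its log2 intensities were 9.53, 7.37 and 7.40 in N1ICD-mdx muscles and 9.13, 11.25 and 7.78 in mdx muscles. The ratio of -3.87 on array 2 was the lowest of any member, and of all 13705 genes with a value on that array none was lower. Birc5 had a mean ratio of -1.28 (standard error 0.90, adjusted p = 0.712 in limma), and 0.01 without replicate 2. Its other 2 probes gave -2.08 and -1.15 on array 2, so the size depends on the probe. Cdc20, the activator of the anaphase-promoting complex, had 8.33, 6.96 and 7.14 in N1ICD-mdx muscles and 7.79, 9.65 and 6.99 in mdx muscles. Replicate 1 of N1ICD-mdx was second to replicate 2 of mdx for Cdc20, and the groups overlapped. Ube2c, the ubiquitin-conjugating enzyme of that complex, had -2.34 on array 2, the Polo kinase gene Plk1 -1.80 and the checkpoint gene Bub1b -1.13. Aurka (NM_011497, chromosome 2), Aurora kinase A of the spindle poles, differed from these in shape. It had 8.11, 8.38 and 7.71 in N1ICD-mdx muscles and 8.41, 8.92 and 7.96 in mdx muscles. On each array the N1ICD-mdx muscle was the lower, while the groups overlapped. The mean ratio of Aurka was -0.36 (standard error 0.10), a level of 0.779-fold, with an unadjusted p = 0.0211 and an adjusted p = 0.703 in limma, and it was -0.27 without replicate 2. With the array left out of the fit as a block, or in the methods' t-test, 0 members reached an unadjusted p under 0.05, so that Aurka is named on the paired fit of limma alone. Over the other settings it ran from -0.59 with median centring to -0.12 with the mdx muscle of replicate 2 alone left out.

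All 9 measured genes of spindle, kinetochore and cytokinesis, out of 11, were positive on array 1 and at or below -1 on array 2. Kif22, a chromosome-bound kinesin, had log2 intensities of 8.60, 7.71 and 7.81 in N1ICD-mdx muscles and 8.13, 9.00 and 7.72 in mdx muscles. Cenpa, the histone variant of centromeres, had 7.96, 7.29 and 7.36 in N1ICD-mdx muscles and 7.67, 8.93 and 7.48 in mdx muscles. Anln, the cytokinesis scaffold anillin, had 8.27, 6.96 and 6.87 in N1ICD-mdx muscles and 7.95, 9.38 and 7.02 in mdx muscles. For each of these genes both muscles of replicate 1 lay above both of replicate 3, and the mdx muscle of replicate 2 above all. The remaining 6, Kif20a, Nusap1, Tpx2, Cenpe, Racgap1 and Prc1, had between -2.51 (Cenpe, a kinetochore motor) and -1.39 (Tpx2, a spindle assembly factor) on array 2. Tpx2 also had the lowest value of the group on array 3, at -0.42.

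The general markers gave the same picture. Mki67 (NM_001081117, chromosome 7) had log2 intensities of 9.35, 7.18 and 7.32 in N1ICD-mdx muscles and 8.87, 10.73 and 7.43 in mdx muscles. Muscles of both genotypes thus fell into the same order by replicate at 1 and 3, and those of replicate 2 lay at opposite ends. The mean ratio of Mki67 was -1.06 (standard error 0.86, adjusted p = 0.736 in limma), and a second probe gave -3.65 on array 2 beside -3.55 at the brightest. Hmgb2, a chromatin protein abundant in cycling cells, had 9.65, 8.75 and 8.51 in N1ICD-mdx muscles and 9.15, 10.54 and 8.63 in mdx muscles. Stmn1, the microtubule destabilizer stathmin, had 9.60, 8.23 and 8.17 in N1ICD-mdx muscles and 9.26, 10.55 and 8.20 in mdx muscles.

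The 7 members that were not kept were dim. Aurkb, Cenpf and Ccne2 were not well above background on any array in either group. Bub1 and Kif11 were so on 1 of 3 arrays in N1ICD-mdx and 2 of 3 in mdx muscle, and Top2a on 2 of 3 in each. The 3 probes of Cdk1 were so on at most 2 of 3 arrays in N1ICD-mdx and 1 of 3 in mdx muscle. Of the members kept, Cdc6 cleared the background on 1 of 3 arrays in N1ICD-mdx and all 3 in mdx muscle, Bub1b on 2 of 3 and all 3, and the others on all 3 in both groups.

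The same sign on all 3 arrays was found for 6 members. Aurka, Cdc6, Cdc45, Rfc3 and Rrm1 were negative throughout, that is 5 of 49 beside 16.4% of all genes. Tyms was positive throughout, beside 17.7%, with a ratio of 0.01 on array 2. Without background correction, or with median centring, all 49 members were negative on array 2, Tyms among them. Cdc6 (NM_011799, chromosome 11) had log2 intensities of 6.10, 6.09 and 6.00 in N1ICD-mdx muscles and 6.24, 6.37 and 6.14 in mdx muscles, with no overlap. Rfc3, another subunit of the clamp loader, had 6.59, 6.62 and 6.42 in N1ICD-mdx muscles and 6.66, 7.00 and 6.63 in mdx muscles, again with every N1ICD-mdx muscle below every mdx muscle. These were 2 of 49 members without overlap on the lower side, beside 6.26% of all genes. Cdc6 was kept through the mdx channel alone, where its signal was higher, so its place in these counts depends on the filter. Its other probe, which was not kept, gave ratios of -0.01, -0.22 and -0.05 on arrays 1, 2 and 3. Cdc45, the helicase cofactor, had 6.34, 6.24 and 6.25 in N1ICD-mdx muscles and 6.40, 6.34 and 6.37 in mdx muscles. The mean ratios were -0.18 (standard error 0.09) for Cdc6, -0.22 (0.10) for Rfc3 and -0.09 (0.08) for Cdc45, with adjusted p values of 0.703, 0.703 and 0.746 in limma. For Cdc6, whose signal is close to background, the ratio was -1.20 with the processed signals of Feature Extraction.

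S phase genes and mitosis genes were then set side by side on each array. The 10 S phase genes were all measured, and 17 of 22 mitosis genes, among them Ccnb1, Ccnb2, Aurka, Plk1, Birc5, Cdc20 and the spindle genes. On array 2 the S phase genes had a median of -1.38 and a range of -2.47 to 0.01, and the mitosis genes a median of -2.10 and a range of -3.87 to -0.54. Of the 17 mitosis genes 14 lay below the S phase median and 4 below the lowest S phase gene, Rrm2. On array 1 both sets were positive, with medians of 0.22 for S phase and 0.30 for mitosis, and on array 3 both were near 0, at -0.03 and -0.06. The difference of the medians, S phase minus mitosis, was -0.08, 0.71 and 0.03 on arrays 1, 2 and 3, and 0.14 for the means of the arrays, or 0.29, 0.10 and 0.31 without replicates 1, 2 and 3. The mitosis median thus lay further from 0 than that of S phase on arrays 1 and 2, on opposite sides. With 3 arrays this difference could not reach an exact p under 0.25, and the sets overlapped on every array. Its size on array 2 moved with the treatment of dim spots, to 1.83 with the processed signals and 1.14 with a normexp offset of 10, but to 0.42 when all kept probes of each gene were averaged and 0.28 with no filter. On array 3 it was -0.10 with each array centred on its median.

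**Figure D3:**
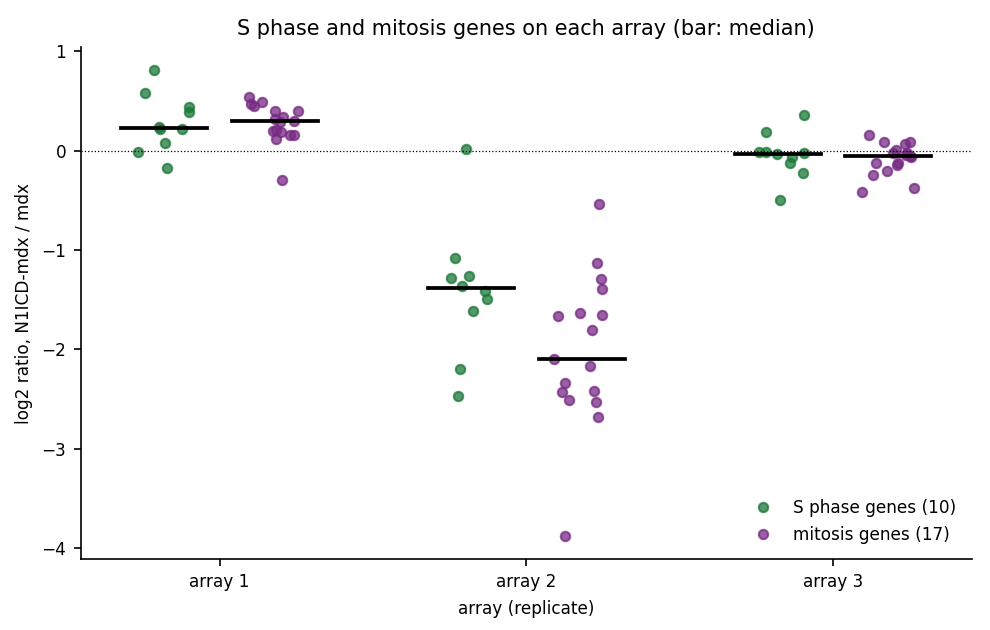
Log2 N1ICD-mdx to mdx ratios (y axis) of the 10 S phase genes (green) and 17 measured mitosis genes (purple) on arrays 1, 2 and 3 (x axis), where each point is a gene and black bars are medians. On array 2 the bars stand at -1.38 for S phase and -2.10 for mitosis, and on arrays 1 and 3 both bars lie between -0.06 and 0.30.

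Arrays 1 and 2 held opposite signs for most members. Of 49 members 40 were positive on array 1 and negative on array 2, beside 25.2% of all genes, and 41 were positive on array 1, beside 50.9%. Mcm6 (0.80 and -2.20), Ccnd1 (0.66 and -1.78), Mcm4 (0.58 and -1.36) and Cdc20 (0.54 and -2.68) had the highest ratios on array 1. Over the 49 members, which share these muscles and are not independent, the ratios of arrays 1 and 2 correlated at -0.53 (Pearson), those of arrays 1 and 3 at -0.00 and those of arrays 2 and 3 at 0.08. Over all genes the values for the same pairs were 0.00, 0.36 and 0.12. With median centring in place of loess all genes lay lower on array 1, at a median of -0.18, and the median of the members was 0.04 with 24 of 49 below 0, so that the members lay above the median gene under both settings.

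**Figure D4:**
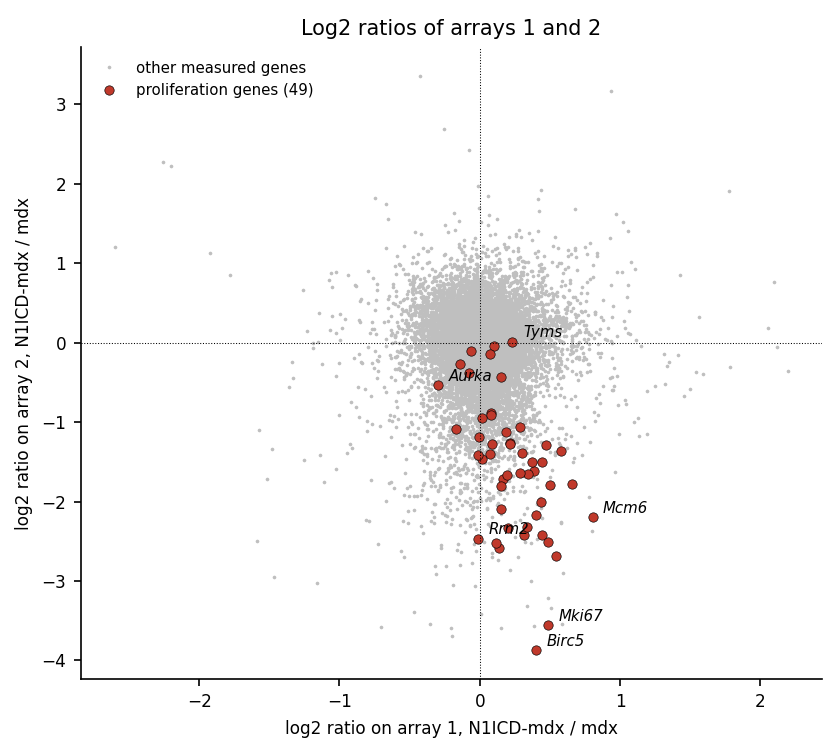
Log2 N1ICD-mdx to mdx ratios on array 1 (x axis) and array 2 (y axis), with the 49 measured proliferation genes in red and the other measured genes in grey. Of the red points 40 lie right of 0 and below 0, from Mcm6 at the right to Birc5 and Mki67 at the bottom.

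Other genes of the same pathways were taken from separate lists. Of 40 further replication genes 36 were measured, 28 with a negative and 8 with a positive mean ratio, and their medians were 0.10, -0.39 and -0.03 on arrays 1, 2 and 3. None passed the adjusted threshold, and 1 had an unadjusted p under 0.05, on the lower side. This was Rfc1, the large subunit of the clamp loader, with log2 intensities of 9.36, 9.53 and 9.43 in N1ICD-mdx muscles and 9.71, 9.67 and 9.67 in mdx muscles. Rpa1, which coats single-stranded DNA, had 11.21, 11.38 and 11.25 in N1ICD-mdx muscles and 11.45, 11.57 and 11.47 in mdx muscles, in both genes with less signal in each N1ICD-mdx muscle than in any mdx muscle. Tipin, a fork protection factor, had 9.17, 9.14 and 8.98 in N1ICD-mdx muscles and 9.43, 9.70 and 9.12 in mdx muscles, which overlapped. The mean ratio of Tipin was -0.32 (standard error 0.12). Without replicate 2 the ratios were -0.20 for Tipin, -0.30 for Rfc1 and -0.24 for Rpa1. Of 46 further mitosis genes 29 were measured, 27 negative and 2 positive, with medians of 0.24, -1.30 and -0.06, and none reached an unadjusted p under 0.05. Knstrn, a kinetochore protein, had log2 intensities of 10.02, 9.22 and 9.35 in N1ICD-mdx muscles and 10.23, 10.91 and 9.90 in mdx muscles. Its mean ratio of -0.82 (standard error 0.32) was -0.38 without replicate 2, and its other probe gave -0.27. Spc24, of the kinetochore complex that binds microtubules, had 6.63, 6.56 and 6.51 in N1ICD-mdx muscles and 6.86, 7.36 and 6.64 in mdx muscles. Its mean ratio of -0.39 (standard error 0.17) was -0.18 without replicate 2. The groups overlapped for Knstrn and lay just apart for Spc24. Pttg1, which encodes securin, the inhibitor of separase, ran the other way, with log2 intensities of 11.35, 12.57 and 12.47 in N1ICD-mdx muscles and 11.42, 10.14 and 11.59 in mdx muscles. The mdx muscle of replicate 2 was here the lowest. The ratios of Pttg1 were -0.08, 2.43 and 0.88 (mean 1.08, standard error 0.51, adjusted p = 0.703 in limma), the mean was 0.40 without replicate 2, and its other probe gave -0.08, 0.78 and 0.50.

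Markers of macrophages were low together with the proliferation genes on array 2. Of 18 on the list 17 were measured, all but Cd163, and all 17 were negative there, with a median of -1.94. On arrays 1 and 3 their medians were -0.10 and -0.12, and 5 of 17 were positive on array 1. Their summed intensity was 20359 to 39782 in N1ICD-mdx muscles and 26103 to 74429.5 in mdx muscles, with the mdx muscle of replicate 2 the highest, and the sum over the 49 members was 11700.5 to 18911 in N1ICD-mdx and 12543 to 38155 in mdx muscles. Satellite cell and myoblast markers, of which 9 of 10 were measured, had medians of -0.34, -0.08 and -0.07. On array 2 they spread from -1.45 (Vcam1) to 0.99 (Myod1), and 6 of 9 were negative, beside 49.6% of all genes. Myog had -1.41 there and a mean ratio of -0.94 (unadjusted p = 0.0171, adjusted p = 0.703 in limma). The summed intensity of these markers was 3673 to 5295 in N1ICD-mdx muscles and 3898 to 7381 in mdx muscles, with the mdx muscle of replicate 1 the highest. Myf5 was the gene not measured, and Pax7, which defines satellite cells, was well above background in all 6 muscles. Muscle fiber markers ran opposite to the members on array 2, with a median of 0.81, and had medians of 0.33 and 0.35 on arrays 1 and 3. On array 2 the medians of the other lists lay between those of macrophage and muscle fiber markers. They were -0.66 for B cell, -0.40 for T cell and NK cell, -0.32 for Schwann cell and -0.25 for endothelial markers. For fibroblast, neutrophil, erythroid and adipocyte markers they were -0.14, -0.09, 0.09 and 0.61. Fibroblast markers spread from -1.62 (Col1a1) to 0.72 (Dcn) there, and neutrophil markers from -1.69 (S100a9) to 0.05 (Camp). On array 1, where 41 of 49 members were positive, fibroblast markers had a median of 0.60 (9 of 10 positive) and endothelial markers one of 0.34 (7 of 9). The other medians on array 1 were 0.12 for Schwann cell, 0.04 for T cell and NK cell, -0.01 for neutrophil, -0.39 for adipocyte, -0.51 for B cell and -1.06 for erythroid markers. The part of the makeup of cells in the ratios of the members was not tested.

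**Figure D5:**
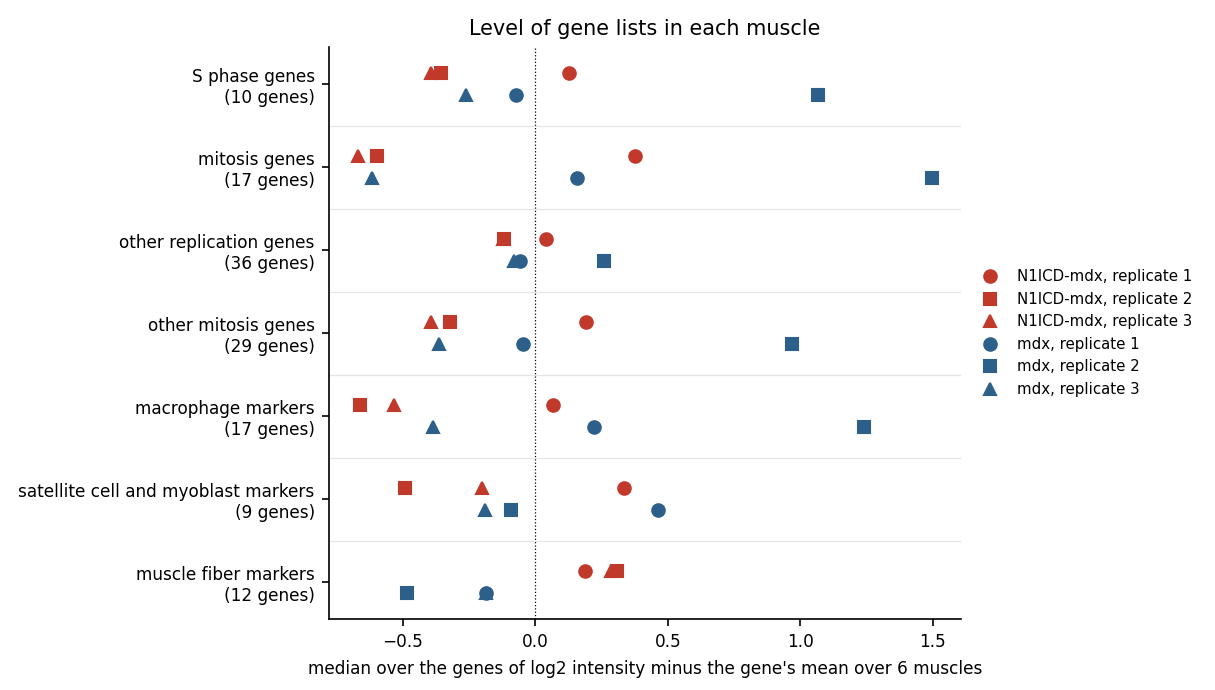
Level of 7 gene lists (rows) in each muscle, as the median over the genes of log2 intensity minus the gene's mean over 6 muscles (x axis), for N1ICD-mdx muscles (red, upper line of a row) and mdx muscles (blue, lower line) of replicates 1 (circle), 2 (square) and 3 (triangle). The mdx muscle of replicate 2 stands at 1.06 for S phase genes, 1.497 for mitosis genes and 1.24 for macrophage markers, at -0.09 for satellite cell and myoblast markers and at -0.48 for muscle fiber markers.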

How the data were processed

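The authors scanned 3 two-color Agilent SurePrint G3 mouse arrays and read them out in Agilent Feature Extraction (11.5 in the labels). The intensity values as deposited are median pixel signals and local backgrounds of each spot in each channel, not normalized, beside processed signals that the program had corrected for background and dye. Those of replicate 1 hold few significant digits. Median signals were corrected by normexp (offset 50) and normalized by loess within arrays in limma 3.58.1 under R 4.3.3, with the data.table package (1.17.8) and control spots at weight 0. Outlier spots were dropped, which left 1 kept gene, not a member, with 2 arrays. Spots of a probe were averaged, and a probe counted as well above background on an array when at least 0.5 of its spots were.

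Probes kept (17814 of 55681) had a gene symbol and reached that mark on every array in 1 channel or both. RefSeq accessions were paired with symbols of GRCm38.p6 for 28026 probes. The array design predates this assembly, which therefore gave names and chromosomes of genes and promoter sequences alone. The brightest kept probe stood for a gene. Log2 intensities per muscle were taken after Aquantile scaling between arrays. For each gene limma fitted an intercept to its 3 ratios with eBayes variances, and the Benjamini-Hochberg adjustment ran over all 13706 genes. Standard errors are those of limma. The ratios pair the 2 muscles of an array. Their deviations from the group means correlated at -0.02, -0.29 and 0.34 across genes on arrays 1, 2 and 3. Pairs of an N1ICD-mdx and an mdx muscle from different arrays ran from -0.63 to 0.50, a range that holds the same-array values. The labels give biological replicates. The procedure was checked on simulated ratios.

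Members, gene lists and the rule for named genes were chosen with earlier results of these data known. That rule gives values per muscle for the S phase genes, the 3 brightest members of each role, members of the same sign on all arrays and the 3 smallest p values in each further list; Ccnb2 was added after its values were seen. Lists are described by counts and medians, with no test. The promoter of a gene was its first entry there. Alternatives were an offset of 10, no background correction, the processed signals, median centring, dim probes included, probes above background in both channels only, averaged probes, leaving out each replicate, no replicate block and the methods' t-test. A fit to 5 muscles was added after the data were seen.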

Additional observations from a re-analysis of the deposited data

How the results depend on the processing

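The count of 0 members at an adjusted p under 0.05 held under every alternative run. At 1.5-fold and an unadjusted p under 0.05 the count was 1 with the processed signals (Cdc6), 3 with median centring (Aurka, Fen1 and Rrm1) and 0 to 2 when a replicate was left out, the 2 being Pcna and Tpx2 without replicate 1. Leaving out replicate 2 turned these medians, which ran from -0.82 to 0.076 for the members, from -0.75 to 0.18 for S phase genes, from -1.04 to 0.081 for mitosis genes and from -0.36 to 0.074 for the further replication and mitosis genes over the replicates left out. With 5 muscles, the mdx muscle of replicate 2 left out, the medians were 0.042 for S phase genes and 0.018 for the further genes, but -0.042 for mitosis genes and -0.00014 for the members, and 23 of 49 members were positive. The cause was not tested. S phase minus mitosis over the means was 0.14, and 0.54 with the processed signals, 0.36 with an offset of 10, 0.32 without background correction, 0.09 with no filter, 0.084 with 5 muscles and 0.098 to 0.315 with a replicate left out.

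With no replicate block the median of the members stayed at -0.47. With or without the block no member passed the adjusted threshold, or 1.5-fold together with an unadjusted p under 0.05. Aurka, at an unadjusted p under 0.05 with the block, was lost (0 members). Among all genes 124 passed 1.5-fold and an unadjusted p under 0.05 without the block, beside 131 with it. Counted apart from the fold, 1 gene passed the adjusted threshold without the block. The methods' t-test called none of the members and 67 genes, 0 after adjustment. Median centring placed the median gene at -0.18 and gave 421 genes past 1.5-fold and an unadjusted p under 0.05. The processed signals gave 444 such genes, an offset of 10 gave 222 and leaving out replicates gave 185 to 207. Without replicate 2, 3 genes passed the adjusted threshold, counted apart from the fold. Members near background, Cdc6, Cdc45 and Tyms, moved with the background correction, and dim spots limit their ratios.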
